A study of Mus musculus with 24 samples.

Results

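The 10 genes H19, Igf2, Igf2r, Dlk1, Meg3, Cdkn1c, Peg3, Mest, Plagl1 and Grb10, members of the network of imprinted genes around H19, were followed through co-cultured and control pancreatic stellate cells (PSC). They were taken by symbol from 53801 genes listed. H19 was selected on its FPKM in the inverse libraries, where it was higher in co-culture, so in inverse libraries it is described with no test. The other 9 genes were taken as members of its network and were tested. They were listed with earlier results of these data known, so the set was not picked blind to the data. PSC are resident fat-storing cells of the pancreas that turn into matrix-producing fibroblasts when activated, and KPC cells are a murine pancreatic cancer line.

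PSC came from pooled pancreata of young wild-type C57BL/6J mice and grew on a porous membrane. In standard co-culture the KPC cells covered the bottom of the well, at a distance from the PSC, whereas in inverse co-culture they were attached to the underside of the PSC membrane before the PSC were seeded. Control PSC were mono-cultured in the matching set-up, and co-cultured and control PSC of both models were sequenced after 24 h and 72 h, which gave 8 groups of 3 libraries. Libraries were made from 450 ng of RNA in the standard model and from 120 ng in the inverse model, so that RNA input, handling, the time the cells had coexisted and the model cannot be told apart.

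Imprinted genes are read mainly from 1 parental copy. In most imprinted domains, which copy is read goes back to DNA methylation laid down in the germ line, which may mark the active or the silent copy. H19, a long non-coding RNA, and Igf2, a fetal growth factor, share 1 imprinted domain in which H19 is read from the maternal and Igf2 from the paternal copy. Many imprinted genes are high in growing fetal tissue, fall together after birth and form a co-expressed network, in which the zinc finger factor Plagl1 and the H19 transcript have both been placed as regulators. Some of them restrain growth, such as Cdkn1c, Grb10 and Igf2r, while others promote it, such as Igf2.

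H19 lies on chr7:142575529-142578143 on the minus strand of GRCm38, the genome build of the series, and holds a microRNA precursor within its transcript. The mature products of this precursor and of the one inside Mest are shown because they are sequences that these 2 host transcripts carry. They are RefSeq sequences on GRCm38.p6, written 5′ to 3′ with the seed (bases 2 to 8) in capitals. The 4 seeds differ from each other.
mmu-miR-675-5p: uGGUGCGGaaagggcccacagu
mmu-miR-675-3p: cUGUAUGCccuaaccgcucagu
mmu-miR-335-5p: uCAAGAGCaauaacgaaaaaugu
mmu-miR-335-3p: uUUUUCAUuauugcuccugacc
The first pair lies at chr7:142577112-142577133 and chr7:142577078-142577099, in an exon of 3 of the 7 annotated H19 transcripts. The second pair lies at chr6:30741314-30741336 and chr6:30741354-30741375, in an intron of 7 of the 11 annotated Mest transcripts. The libraries were made from poly-A RNA, which does not hold mature microRNAs, and Mir675 was listed at 0 in all 24 libraries, so the values below are those of the host genes only.

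H19 was a scarce transcript in all groups. Its FPKM, the number of fragments scaled by gene length and library total, ranged from 0.237 to 4.14 and exceeded 1 in 14 of 24 libraries. These values rested on 5 to 83 fragments per library, out of 15932737 to 24798761 counted fragments in all, with a median of 18860269. An exact 95% Poisson interval, which covers counting error only, ran from 1.62 to 11.67 for the library with 5 fragments and from 66.11 to 102.89 for the one with 83.

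In inverse co-culture at 24 h, H19 was at 1.89, 2.66 and 4.14 FPKM in co-cultured PSC and at 0.857, 0.907 and 0.237 FPKM in control PSC. At 72 h it was at 2.53, 1.71 and 2.28 FPKM in co-cultured PSC and at 1.01, 1.51 and 0.370 FPKM in control PSC. Every co-cultured library was above every control library at both times. The mean level was 2.90 ± 1.14 (SD, n = 3) against 0.667 ± 0.373 FPKM at 24 h, a ratio of 4.34. At 72 h it was 2.17 ± 0.421 against 0.962 ± 0.570 FPKM, a ratio of 2.26. These are the values that led to the choice of H19, and no test is attached to them. Counts were 51 to 83 fragments per co-cultured and 5 to 28 per control library at 24 h.

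An epithelial marker was higher in the same libraries. Krt19, an epithelial keratin, was at 1.64, 11.6 and 2.53 FPKM in co-cultured PSC of the inverse model at 24 h. In control PSC it was at 0.192, 0.370 and 0.301 FPKM. At 72 h it was at 1.83, 1.17 and 3.11 against 0.176, 0.116 and 0 FPKM. The groups did not overlap at either time. The sum over 11 epithelial markers was 3.46, 46.15 and 8.64 FPKM in co-cultured PSC at 24 h and 1.27 to 2.29 FPKM in control PSC, and at 72 h 4.77 to 11.06 against 2.50 to 6.94 FPKM. Among the co-cultured libraries at 24 h, the sum was highest in the second and H19 in the third, and both were lowest in the first. Epcam, a defining epithelial marker, reached 0.123 FPKM at most and was at 0 in 21 of 24 libraries. Cdh1 was at 0 in 18 and reached 0.948 FPKM. The keratins Krt8, Krt18 and Krt7 reached 15.2, 11.7 and 3.41 FPKM and exceeded 1 FPKM in 3, 3 and 2 of the 24 libraries. The sum over 4 mesothelial markers was 30.53 to 33.77 FPKM in co-cultured and 20.19 to 24.29 FPKM in control PSC at 24 h. At 72 h these groups overlapped (25.7 to 34.57 against 24.01 to 33.85 FPKM). Of the 4, Wt1 alone was tested at 24 h and was not called (limma adjusted p = 0.0938). Whether RNA of KPC or mesothelial cells had a part in the values of H19 was not tested.

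Standard co-culture was not used to choose H19 and allows a test. At 24 h, H19 was at 1.96, 1.44 and 1.06 FPKM in co-cultured PSC and at 0.353, 0.732 and 1.34 FPKM in control PSC. The groups overlapped, since the third control library was above the third co-cultured one. The log2 fold change on log2(FPKM + 0.5), a scale that understates changes of scarce genes, was 0.65 (SE 0.38), which missed the threshold (limma's moderated test, Benjamini-Hochberg adjusted p = 1 over 12859 genes tested, and 0.49 when same-numbered libraries were blocked). At 72 h, the FPKM was 1.78, 3.28 and 0.411 in co-cultured PSC and 0.611, 0.876 and 0.935 in control PSC. The third co-cultured library was below all 3 controls, and the mean of 1.82 ± 1.44 (n = 3) had an SD larger than its distance from the control mean of 0.807 ± 0.172. H19 did not reach an FPKM above 1 in 3 of these 6 libraries and was not tested at 72 h. Without that filter its log2 fold change was 0.61 (SE 0.55, adjusted p = 0.889 in limma).

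**Figure D1:**
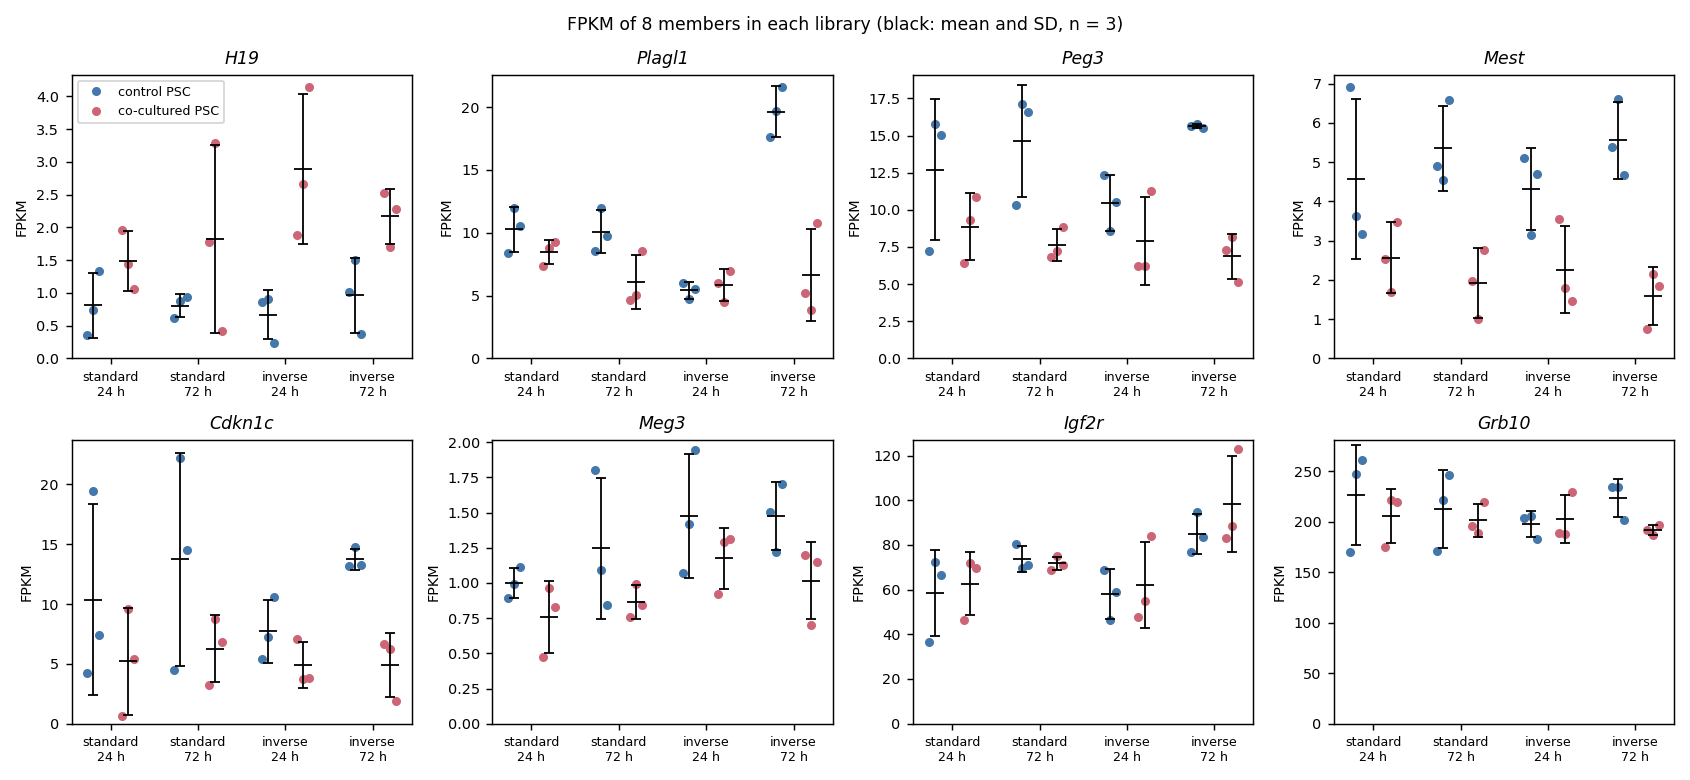
FPKM (y axis, linear, from 0) of 8 of the 10 genes in each library, by model and time (x axis), with control PSC in blue, co-cultured PSC in red, and the mean and SD of 3 libraries in black. H19 was higher in all co-cultured libraries of the inverse model and overlapped in the standard model. Plagl1, Peg3, Mest, Cdkn1c, Meg3 and Grb10 were lower in all co-cultured libraries of the inverse model at 72 h, but Meg3 and Grb10 missed the threshold.

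Ordered by mean level, the 4 co-cultured groups came first and the 4 control groups last. Co-cultured PSC of the inverse model led at 24 h with 2.90 FPKM and at 72 h with 2.17, followed by those of the standard model at 72 h with 1.82 and at 24 h with 1.49. The controls lay between 0.962 and 0.667 FPKM. Neighbours in this order overlapped in their libraries throughout.

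Of the neighbours of H19 on chromosome 7, the leukocyte and fibroblast cytoskeletal gene Lsp1 was well expressed and lies 80662 bases away. It was at 76.2, 74.0 and 70.4 FPKM in control PSC and at 136, 125 and 186 FPKM in co-cultured PSC of the inverse model at 72 h. The groups did not overlap, and Lsp1, like 12.8% of 13066 genes tested a DEG in this comparison, rose by 0.99 on the log2 scale (SE 0.15, limma adjusted p = 0.0088), a call that held when any 1 library was left out. Mrpl23, a mitochondrial ribosomal protein gene 34782 bases from H19, had a log2 fold change of 0.02 (adjusted p = 0.932), Tnnt3 one of 0.14 (adjusted p = 0.876) and Ctsd one of -0.36 (adjusted p = 0.238). Nctc1, a non-coding neighbour at 16933 bases, was listed at 0 in all libraries, as was Ins2.

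Igf2, the partner of H19, was close to 0, with 7 fragments over all 24 libraries and none in 19 of them. This value could not be read as absence, because 3694 of the 5723 exon bases of Igf2 (64.5%) are shared with other annotated genes, 3596 of them with Gm49394 on the same strand. The counting was run at its defaults, which leave out fragments that overlap more than 1 gene and ignore the strand. Gm49394 itself was listed at 0, and Igf2os, the antisense gene, reached 0.0553 FPKM at most. Dlk1, a membrane protein of the Notch ligand family, shares no exon base with another gene and was at 0 in all 24 libraries. A count of 0 allows up to 3 fragments, which stand for 0.0602 to 0.0936 FPKM of Dlk1 across the libraries.

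Of the 4 co-culture comparisons, inverse co-culture at 72 h was the one in which members other than H19 passed the test. Plagl1, Mest, Cdkn1c and Peg3 fell between 2.23-fold and 3.06-fold on the log2(FPKM + 0.5) scale, and no member rose. These 4 are a zinc finger transcription factor (Plagl1), an enzyme of the alpha/beta hydrolase fold (Mest), the inhibitor p57 of cyclin-dependent kinases (Cdkn1c) and another zinc finger protein (Peg3). Of the 9 genes, 7 passed the filter on low values, and 4 of these 7 were lower DEG (adjusted p under 0.05), where 9.57% of all 13066 genes tested were lower DEG and 3.27% were higher DEG. The median log2 fold change was -1.16 over the 7 genes and -0.16 over all genes tested, and 6 of the 7 were below 0.

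Plagl1 was at 17.6, 19.7 and 21.6 FPKM in control PSC and at 5.20, 3.87 and 10.8 FPKM in co-cultured PSC of the inverse model at 72 h. All co-cultured libraries were below all controls, and the third was the least reduced. The log2 fold change was -1.62 (SE 0.32, limma adjusted p = 0.0196), or 3.06-fold lower. Mest was at 5.39, 6.61 and 4.67 FPKM in control PSC and at 0.749, 2.15 and 1.86 FPKM in co-cultured PSC, again with no overlap. Its log2 fold change was -1.60 (SE 0.32, adjusted p = 0.0196), on 16 to 40 fragments per co-cultured library. In Mest, 912 of 3945 exon bases are shared with Copg2 on the opposite strand, which was expressed in all libraries, and the counting leaves out fragments there for both genes.

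Cdkn1c was at 13.2, 14.7 and 13.3 FPKM in control PSC and at 6.69, 6.25 and 1.86 FPKM in co-cultured PSC. The controls were within a narrow range and the third co-cultured library was far below the other 2. The log2 fold change was -1.55 (SE 0.40, limma adjusted p = 0.0423). Peg3 was the most even of the 4, at 15.6, 15.8 and 15.5 FPKM in control PSC and at 7.28, 8.15 and 5.15 FPKM in co-cultured PSC. Its log2 fold change was -1.16 (SE 0.18, adjusted p = 0.0088), or 2.23-fold lower.

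Peg3 was past the threshold in all 16 alternative analyses, with adjusted p-values from 0.00262 to 0.0472, Mest in 11 of 15, Plagl1 in 11 of 16 and Cdkn1c in 5 of 16. With any 1 of the 3 control libraries left out, Peg3 alone passed, so that 1 gene was called in place of 4, and without co-cultured library 1 both Peg3 and Mest passed, which left 2 genes. Cdkn1c also lost its call with the replicate block (adjusted p = 0.0532), under which 3 members and 6.9% of all genes passed, and with both alternative scalings (adjusted p = 0.0676 in each). Scaling the libraries by the median of gene ratios moved the median of all genes from -0.16 to 0.00 and the higher share of all DEG from 25.4% to 53.5%, or to 50.3% with quantile normalization. Relative to the median of all genes, the 4 members were lower by 1.00 to 1.46 on the log2 scale.

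**Figure D2:**
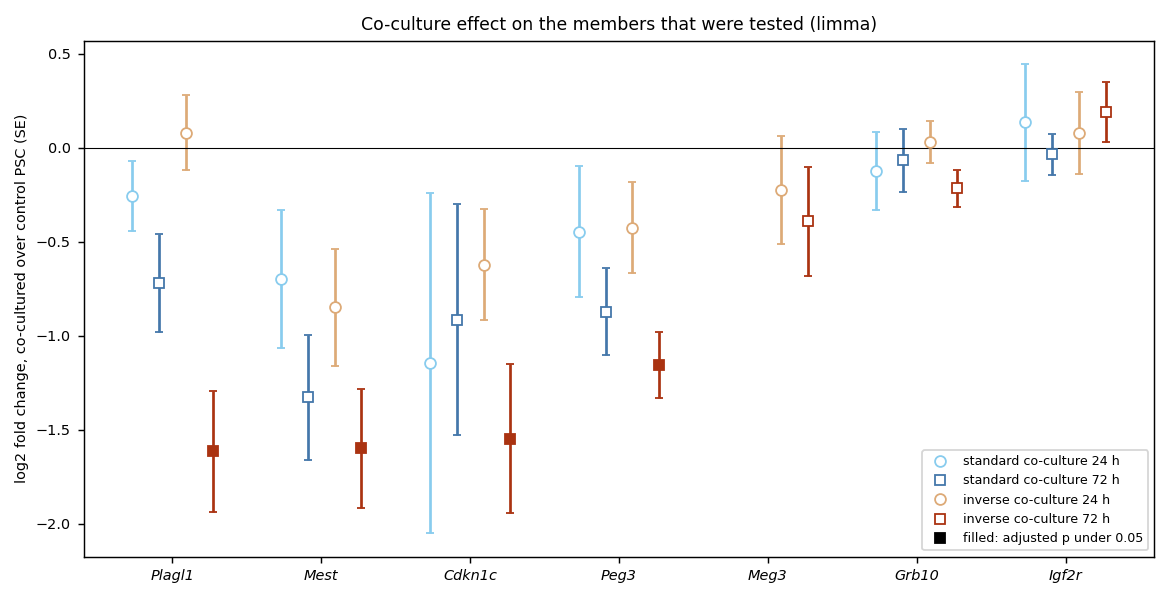
Log2 fold change of FPKM + 0.5 in co-cultured over control PSC (y axis, with SE) of the 7 genes that were tested (x axis), by model and time, with filled symbols for an adjusted p under 0.05 in limma. Only Plagl1, Mest, Cdkn1c and Peg3 in inverse co-culture at 72 h were filled, at -1.62, -1.60, -1.55 and -1.16.

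The sequence before the start of 3 of these 4 genes is shown because they fell together, and no RefSeq promoter entry was matched for Cdkn1c. Of the 10 genes, 8 had at least 1 entry in the table of promoters, which spans 250 bases before to 50 bases after each start on GRCm38.p6. The stretches below lie before the start and are free of annotated exons. They are written 5′ to 3′ on the strand of the gene, with each CG, the unit that DNA methylation acts on, in capitals.
Plagl1, chr10:13090582-13090690, plus strand: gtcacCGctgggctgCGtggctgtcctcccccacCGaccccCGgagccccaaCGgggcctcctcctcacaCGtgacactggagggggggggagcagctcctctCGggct
Mest, chr6:30737800-30738049, plus strand: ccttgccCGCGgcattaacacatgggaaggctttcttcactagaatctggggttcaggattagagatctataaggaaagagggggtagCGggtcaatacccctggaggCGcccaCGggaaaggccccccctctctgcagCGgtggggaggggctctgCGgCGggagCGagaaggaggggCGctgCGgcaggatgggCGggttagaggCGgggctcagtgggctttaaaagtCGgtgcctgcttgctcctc
Peg3, chr7:6730432-6730577, minus strand: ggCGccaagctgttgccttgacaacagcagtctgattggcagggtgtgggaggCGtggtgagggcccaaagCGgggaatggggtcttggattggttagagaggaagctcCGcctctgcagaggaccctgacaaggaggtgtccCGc
Within the full window of 300 bases, Plagl1 had 26 CG, a number that 16.9% of 32851 promoters reached. The Mest window shown had 17 (reached by 31.4%) and that of Peg3 13 (reached by 37.9%), against a median of 7 over all promoters. Mest had 3 entries, of which another also held 17 CG and the one farthest upstream held 8 (reached by 48.6%). Plagl1 protein binds GC-rich sites, and the palindrome GGGGCCCC was searched in all windows, which reads the same on both strands. It was found in 354 of 32851 windows (1.08%) and in 1 of the 8 members with an entry, Peg3. The site lies 193 bases before the Peg3 start, within an exon of the neighbouring Usp29, and is given with its flanks and the palindrome in capitals.
Peg3 site, chr7:6730602-6730631, minus strand: gactctgcttgGGGGCCCCtaacactgact
A match of these letters is a description of the sequence, and binding was not measured in these libraries.

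The other tested members did not pass at 72 h in inverse co-culture. Grb10, an adaptor that restrains insulin and IGF receptor signalling, was the most abundant member by FPKM, at 234, 234 and 201 FPKM in control PSC and at 192, 187 and 197 FPKM in co-cultured PSC. Its groups did not overlap, but its log2 fold change of -0.22 was close to the median of all genes (limma adjusted p = 0.179). Igf2r, the receptor that clears IGF2 from the cell surface, was at 76.8, 94.6 and 83.6 FPKM in control PSC and at 83.3, 88.4 and 123 FPKM in co-cultured PSC, with a log2 fold change of 0.19 (adjusted p = 0.455). The gene length behind its FPKM, 2549 bases, differs from the mean of 3311 bases in the annotation used here, so its level relative to other genes is uncertain. Meg3, the long non-coding RNA of the Dlk1 domain, was at 1.504, 1.22 and 1.71 FPKM in control PSC and at 1.20, 0.701 and 1.15 FPKM in co-cultured PSC. Its libraries did not overlap, but the log2 fold change of -0.39 missed the threshold (adjusted p = 0.388), on 33 to 110 fragments per library.

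At 24 h in inverse co-culture none of the 7 members tested passed, where 2.47% of 12827 genes did (1.08% higher and 1.39% lower), and with the replicate block none passed beside 0.686% of all genes. The median log2 fold change was -0.23 over the 7 genes and -0.06 over all genes tested. The largest values were those of Mest at -0.85 (limma adjusted p = 0.233), Cdkn1c at -0.62 (adjusted p = 0.382) and Peg3 at -0.43 (adjusted p = 0.485). Plagl1, at 6.02, 4.69 and 5.54 FPKM in control PSC and 6.01, 4.45 and 6.97 FPKM in co-cultured PSC, overlapped fully. Of the 7 genes, 1 had an unadjusted p under 0.05, and voom, a limma method run on recovered fragments, called none of the 7 and 520 of all genes (4.06%).

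In standard co-culture no gene of the whole table passed at either time (0 of 12859 genes at 24 h and 0 of 12863 at 72 h, or 0%, in limma and in voom, with 371 and 800 genes at an unadjusted p under 0.05). Without a block, of the 6 members other than H19 that were tested, none had an unadjusted limma p under 0.05 at 24 h. At 72 h 3 had one. Libraries with the same number deviated together in this model. With same-numbered libraries blocked, 157 of all genes (1.22%) passed at 24 h and 1 (0.00777%) at 72 h, and still none of the members. The blocked limma fit gave unadjusted p-values under 0.05 to Cdkn1c (0.00643), Peg3 (0.0178) and Mest (0.0465) at 24 h. At 72 h it gave them to Mest (0.00164), Peg3 (0.00327), Cdkn1c (0.00642) and Plagl1 (0.0231). The adjusted p-values of these genes in the same limma fit were 0.136 to 0.321 at 24 h and 0.219 to 0.409 at 72 h. The share of all genes under 0.05 in that fit was not counted, so these unadjusted values cannot be read as particular to the members.

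In standard co-culture at 72 h without the block, Mest, Peg3 and Plagl1 had the 3 unadjusted p-values under 0.05. Mest was at 4.91, 4.55 and 6.59 FPKM in control PSC and at 1.98, 1.01 and 2.77 FPKM in co-cultured PSC, with no overlap and a log2 fold change of -1.33 (limma adjusted p = 0.723, and 0.219 with the block). Peg3 was at 10.3, 17.1 and 16.6 FPKM in control PSC and at 6.82, 7.23 and 8.88 FPKM in co-cultured PSC, also with no overlap and a log2 fold change of -0.87 (adjusted p = 0.723, and 0.288 with the block). Plagl1 was at 8.54, 11.96 and 9.77 FPKM in control PSC and at 4.63, 5.05 and 8.59 FPKM in co-cultured PSC. The third co-cultured library of Plagl1 was just above the first control, and its log2 fold change was -0.72 (adjusted p = 0.759, and 0.409 with the block).

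Cdkn1c was uneven between the libraries of the standard model, and library 2, which held the most macrophage markers, had its highest value in each group. It was at 4.48, 22.2 and 14.5 FPKM in standard control PSC and at 3.20, 8.78 and 6.85 FPKM in standard co-cultured PSC at 72 h, and at 4.24, 19.4 and 7.45 against 0.664, 9.55 and 5.41 FPKM at 24 h. Library 1 was the lowest in all 4 of these groups, and each co-cultured library was below the control with the same number. The log2 fold change was -0.92 at 72 h (limma adjusted p = 0.819, and 0.326 with the block) and -1.15 at 24 h (adjusted p = 1, and 0.136 with the block). At 24 h it ran from -1.79 without co-cultured library 2 to -0.24 without co-cultured library 1. Peg3, Plagl1 and Meg3 were likewise lower in the co-cultured library of all 3 same-numbered pairs at both times, although the third pair of Meg3 at 72 h was level (0.8418 and 0.8416 FPKM), and Mest in 2 of 3 pairs at 24 h and 3 of 3 at 72 h. Igf2r was lower in 1 of 3 pairs at each time and Grb10 in 2 of 3.

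The median log2 fold change of the 6 members tested in standard co-culture was -0.35 at 24 h and -0.80 at 72 h, and over all genes tested it was -0.01 and -0.09. The difference between the models in the co-culture effect was tested itself, over all 24 libraries. No member passed at 24 h or 72 h and neither did any of 14452 genes (0% at each time, in limma and in voom, with 182 and 501 genes at an unadjusted p under 0.05). Plagl1 at 72 h had the largest difference, -0.90 in the inverse relative to the standard model (SE 0.39, limma adjusted p = 0.997). With the replicate block 16 of all genes (0.111%) and no member passed at 72 h. The calls in the inverse model alone thus do not show that the members responded differently in the 2 models.

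Plagl1 also changed between control PSC. In inverse controls it was at 6.02, 4.69 and 5.54 FPKM at 24 h and at 17.6, 19.7 and 21.6 FPKM at 72 h, and it rose by 1.77 on the log2 scale (SE 0.14, limma adjusted p = 0.00122), or 3.41-fold. This call held in all 16 alternatives. The 72 h co-cultured PSC, at 6.63 ± 3.69 FPKM (SD, n = 3), stood near the 24 h level of 5.42 ± 0.673 FPKM in control PSC, and both comparisons share the 72 h control libraries. In standard controls Plagl1 was at 8.39, 11.97 and 10.5 FPKM at 24 h and at 8.54, 11.96 and 9.77 FPKM at 72 h, which overlapped fully. The difference between the models in this change over time, tested after its values were seen, was 1.80 (SE 0.39, adjusted p = 0.402), where 1 of 14452 genes (0.00692%) passed.

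Cdkn1c, Peg3 and Igf2r rose in inverse controls from 24 h to 72 h as well, so that 4 of 7 members tested rose and none fell, where 10.2% of 13092 genes rose and 9.05% fell (19.2% in all, 15.2% with the replicate block and 23.4% in voom). The median log2 fold change was 0.56 over the 7 genes and 0.04 over all genes. Cdkn1c was at 5.38, 7.24 and 10.6 FPKM at 24 h and rose by 0.84 (limma adjusted p = 0.0279). Peg3 was at 12.4, 8.59 and 10.5 FPKM and rose by 0.57 (adjusted p = 0.0253), and Igf2r at 68.9, 46.2 and 58.9 FPKM rose by 0.56 (adjusted p = 0.0315). With the replicate block 3 members passed, Igf2r being lost (adjusted p = 0.0615). These 3 calls were less stable than that of Plagl1, which was the only one left without 24 h control library 2 or without 72 h control library 3. Without 24 h library 3, 72 h library 1 or 72 h library 2, 2 genes were called, and without 24 h library 1 Cdkn1c lost its call (adjusted p = 0.0648). In standard controls no member passed over time, and none of 12963 genes did (0%, in limma and in voom, with 127 genes at an unadjusted p under 0.05).

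Between the control PSC of the 2 models no member passed, and no gene did (0% of 12903 genes at 24 h and of 13106 at 72 h in limma and in voom, with 225 and 810 genes at an unadjusted p under 0.05). Plagl1 had a log2 difference, inverse over standard, of -0.86 at 24 h (limma adjusted p = 1) and of 0.94 at 72 h (adjusted p = 0.717). Its libraries did not overlap at either time.

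Markers of adipocytes, macrophages and cycling cells moved in the same libraries. At 72 h in the inverse model the summed FPKM of 6 adipocyte markers was 1663 to 2495 in control PSC and 404 to 937 in co-cultured PSC, and 6 of 6 were lower DEG. Macrophage markers summed to 118 to 225 FPKM in control PSC and to 48.9 to 78.7 FPKM in co-cultured PSC, with 5 of 6 tested lower. Markers of cycling cells summed to 53.4 to 78.4 FPKM in control PSC and to 100 to 137 FPKM in co-cultured PSC, with 4 of 5 higher. Of all 13066 genes tested in this comparison, 9.57% were lower and 3.27% higher DEG. In inverse controls from 24 h to 72 h, 6 of 6 adipocyte and 5 of 6 macrophage markers tested rose. Of the cycling markers, 5 of 5 fell. Of all 13092 genes tested there, 10.2% rose and 9.05% fell. Lower levels from fewer cells of a type and from less RNA per cell cannot be told apart in bulk samples, and the part of these cells in the values of the members was not tested.

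**Figure D3:**
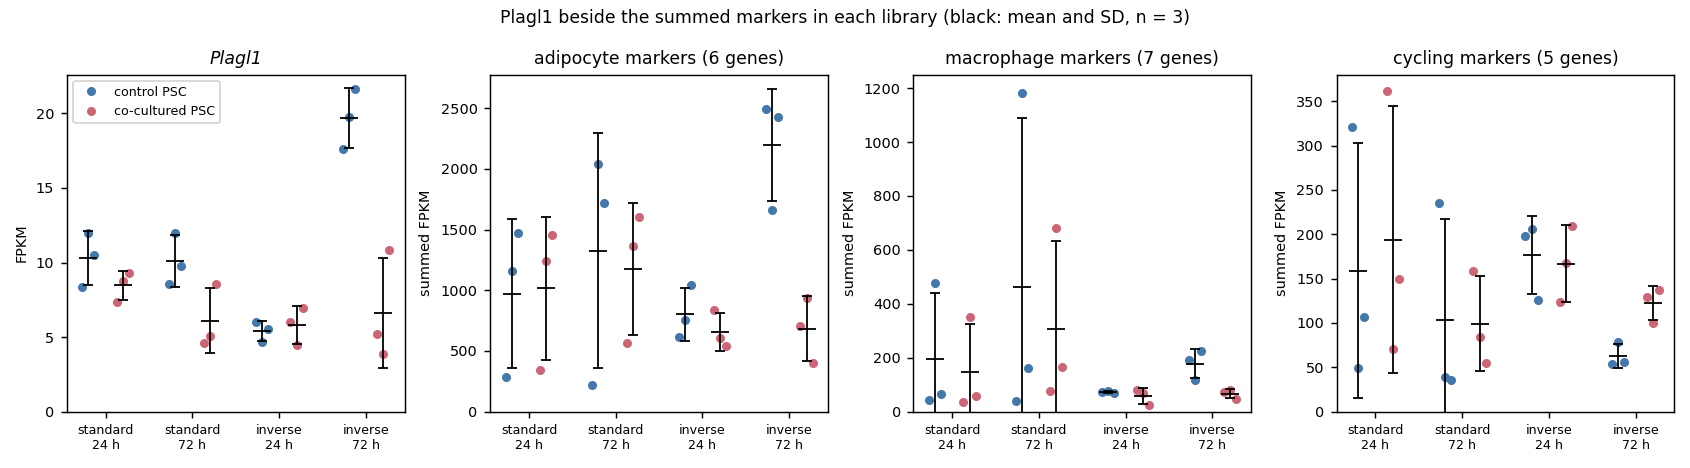
FPKM of Plagl1 and summed FPKM of adipocyte, macrophage and cycling cell markers (y axes, linear, from 0) in each library, by model and time (x axis), with control PSC in blue, co-cultured PSC in red, and the mean and SD of 3 libraries in black, error bars that would pass below 0 being cut at the axis. In inverse control PSC Plagl1 and the adipocyte and macrophage sums were higher at 72 h than at 24 h, and the cycling sum was lower.

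The libraries carried the markers of PSC throughout, with a summed FPKM of 11743 to 20530 over 11 stellate cell and fibroblast markers, although Gfap was at 0 in 12 libraries and reached 0.237 FPKM at most. The sum was not constant. In the inverse model at 72 h it was 11743 to 15268 FPKM in control PSC and 16230 to 18414 FPKM in co-cultured PSC, with no overlap. Of 10 of these markers tested there, 1 was a higher and 1 a lower DEG, where 3.27% and 9.57% of all genes were. Among the 11 epithelial markers, 2 were tested in inverse co-culture at 72 h. Krt19 rose by 2.03 (limma adjusted p = 0.0189), while the other had a log2 fold change below 0 and was not called. The part of epithelial RNA in the values of the members was not tested. Co-cultured library 2 of the inverse model at 24 h held the highest epithelial sum, 46.15 FPKM. None of the members tested passed with or without that library, so leaving it out cannot show whether epithelial RNA mattered. H19, which was chosen on values that include these, was at 1.89 and 4.14 FPKM in libraries 1 and 3 of this group. Their epithelial sums were 3.46 and 8.64 FPKM, against 1.27 to 2.29 FPKM in control PSC. In the standard model, library 1 stood apart with cycling sums of 321 and 235 FPKM and adipocyte sums of 284 and 221 FPKM in the controls, and library 2 with macrophage sums of 350 to 1183 FPKM in the 4 groups, against 36.9 to 164 FPKM in libraries 1 and 3. No member passed there with all libraries or with any 1 left out.

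Among the other imprinted genes tested in inverse co-culture at 72 h, Dio3 changed most. Dio3 encodes the deiodinase that inactivates thyroid hormone and lies in the imprinted domain of Dlk1 and Meg3 on chromosome 12. In the inverse model it was at 83.2, 68.1 and 76.7 FPKM in control PSC and at 271, 266 and 253 FPKM in co-cultured PSC at 72 h, and it rose by 1.79 on the log2 scale (SE 0.10, limma adjusted p = 0.0012), or 3.46-fold. At 24 h it was at 41.3, 49.9 and 49.3 against 151, 165 and 279 FPKM and rose by 2.02 (SE 0.21, adjusted p = 0.00514), or 4.06-fold. Both calls held in 15 of 16 alternatives and were lost in a model over all 24 libraries (adjusted p = 0.107 at 72 h and 0.332 at 24 h).

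In standard co-culture the control libraries of Dio3 were uneven, the first being the lowest at both times. Dio3 was at 13.9, 88.4 and 72.4 FPKM in control PSC and at 78.9, 188 and 145 FPKM in co-cultured PSC at 24 h, and at 11.5, 112 and 109 against 253, 255 and 183 FPKM at 72 h. The groups overlapped at 24 h and did not at 72 h, and the log2 fold changes of 1.52 and 2.11 did not pass (adjusted p = 1 and 0.779 in limma). Within the same domain Dlk1 was at 0, Meg3 stayed under 2 FPKM, and Rtl1 was at 0 in all groups, so that Dio3 alone of these was abundant. Begain, an imprinted gene next to Dlk1, was at 4.82, 5.45 and 4.46 FPKM in control PSC and at 9.73, 11.1 and 8.03 FPKM in co-cultured PSC of the inverse model at 24 h, and rose by 0.90 (limma adjusted p = 0.0327). It is named after its values were seen, was called in 7 of 16 alternatives, and lost its call without any 1 of the 3 controls or co-cultured library 1 or 2 (adjusted p up to 0.439 over all alternatives).

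Of 45 other imprinted genes, 25 were tested in inverse co-culture at 72 h, of which 2 rose and 2 fell, with a median log2 fold change of -0.18, where 3.27% of all genes rose, 9.57% fell and the median was -0.16. Besides Dio3, the protease inhibitor gene Tfpi2 rose by 1.21 (limma adjusted p = 0.00615), from 8.05, 7.41 and 5.85 FPKM in control PSC to 18.4, 15.6 and 17.1 FPKM in co-cultured PSC, and its call held in all 16 alternatives. Zim1, a zinc finger gene next to Peg3, fell by 1.01 (adjusted p = 0.0401), from 4.21, 5.40 and 8.29 FPKM to 2.60, 2.31 and 2.89 FPKM. Peg13, a long non-coding RNA, fell by 0.94 (adjusted p = 0.011), from 13.5, 15.3 and 15.8 FPKM to 7.39, 8.86 and 6.42 FPKM, and lost its call without control library 3 (adjusted p = 0.0591). Zim1 was called in 6 of 15 alternatives and lost its call without any 1 control library or without co-cultured library 1 or 2 (adjusted p from 0.0521 to 0.13).

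**Figure D4:**
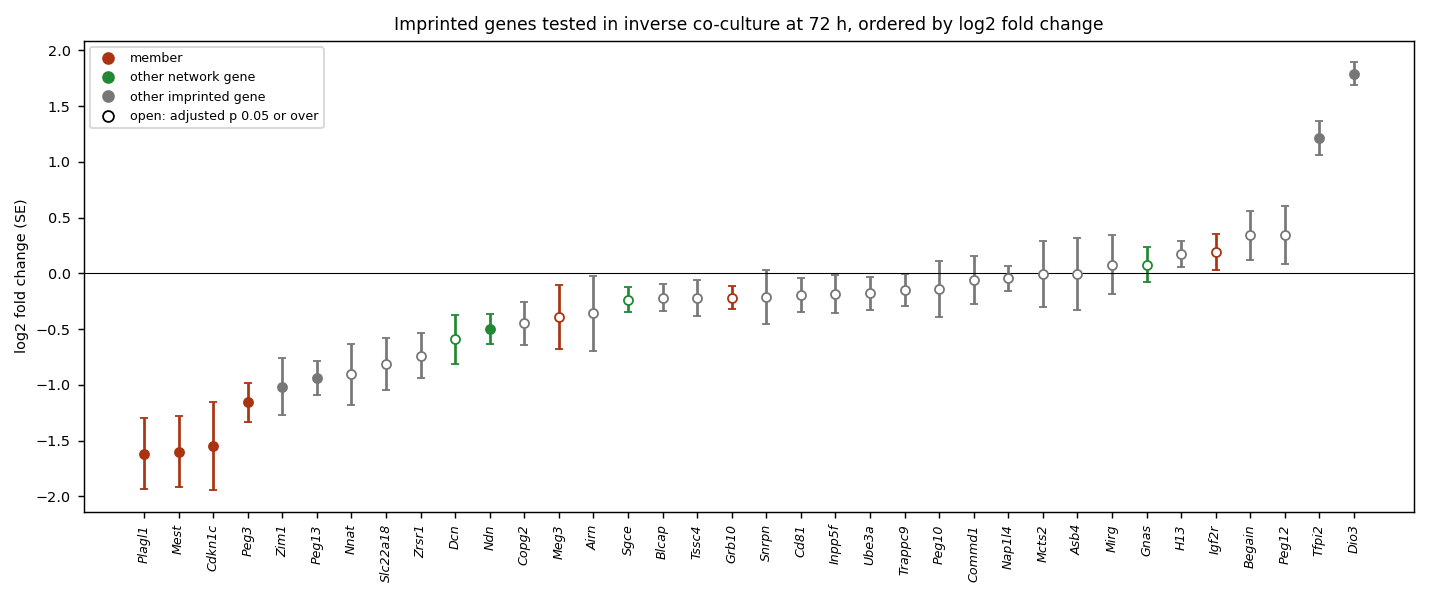
Log2 fold change of FPKM + 0.5 with SE (y axis) of the imprinted genes tested in inverse co-culture at 72 h (x axis, ordered by value), with members in red, other network genes in green, other imprinted genes in grey and filled symbols for an adjusted p under 0.05 in limma. Plagl1, Mest, Cdkn1c and Peg3 were at the low end, from -1.62 to -1.16, and Dio3 and Tfpi2 at the high end, at 1.79 and 1.21.

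Of 6 further genes of the published network, 4 were tested at 72 h in the inverse model. Ndn, a growth-restraining gene of the Prader-Willi domain, fell by 0.50 (limma adjusted p = 0.047), from 25.9, 22.3 and 27.5 FPKM to 18.5, 19.2 and 15.6 FPKM. The call was lost when any 1 of the 6 libraries was left out (adjusted p from 0.0541 to 0.162) and under both scalings (adjusted p = 0.136 and 0.144). The median of the 4 genes was -0.37, against -0.16 over all genes tested. Ndn was the 1 lower DEG of the 4, where 9.57% of all genes were lower DEG.

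Genes that act on the members were counted too. Of 8 genes for IGF receptors and partners, 7 were tested and none passed in inverse co-culture at 72 h (median -0.18). Over all genes tested there, 12.8% passed and the median was -0.16. At 24 h 1 of 7 passed, where 2.47% of all genes did. This was Igf1, the relative of Igf2, which rose by 0.86 (limma adjusted p = 0.0168), from 40.3, 36.2 and 30.2 FPKM to 70.1, 57.5 and 66.3 FPKM. It is named after its values were seen and lost its call without control library 2 or 3 (adjusted p = 0.0806 and 0.0769), in a range of 0.00295 to 0.81 over all alternatives.

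Of 13 genes for the maintenance of imprints, 11 were tested at 72 h in inverse co-culture, where 1 rose and 2 fell (median -0.23), against 3.27% and 9.57% of all genes and a median of -0.16. Uhrf1, which brings the maintenance methyltransferase to newly copied DNA, rose by 1.11 (limma adjusted p = 0.0107), from 4.32, 6.21 and 5.87 FPKM to 12.3, 10.7 and 13.8 FPKM, and missed the threshold in a model over all 24 libraries (adjusted p = 0.317) and without co-cultured library 1 (adjusted p = 0.0501), passing in the other 14 of 16 alternatives. Its rise ran beside that of the cycling markers given above. Tet1, an enzyme that oxidizes methylated cytosine, fell by 0.95 (adjusted p = 0.0496), from 2.13, 1.80 and 2.14 FPKM to 0.734, 0.928 and 0.770 FPKM, and lost its call without any 1 co-cultured library (adjusted p up to 0.125). Ctcf, the insulator protein that separates H19 and Igf2, fell by 0.44 (adjusted p = 0.0358), from 65.7, 57.1 and 55.1 FPKM to 46.0, 43.0 and 41.8 FPKM. It lost its call with any 1 library left out (adjusted p from 0.0546 to 0.128) and under both scalings (adjusted p = 0.153 and 0.111).

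Relatives of the members were Plag1, Plagl2, Cdkn1a, Cdkn1b, Grb7, Grb14 and Dlk2, of which 4 were tested at 72 h in inverse co-culture. Of these 4, 1 was a lower DEG, where 9.57% of all genes tested were. The median log2 fold change was -0.13 over the 4 and -0.16 over all genes. Grb14, an adaptor of the Grb10 family, fell by 0.95 (limma adjusted p = 0.0101), from 20.8, 24.2 and 28.9 FPKM to 13.3, 12.9 and 11.04 FPKM, and its call held in all 16 alternatives. Cdkn1a and Cdkn1b, the other inhibitors of the Cdkn1c family, had log2 fold changes of 0.02 (adjusted p = 0.942) and -0.17 (adjusted p = 0.322), and Plagl2, the relative of Plagl1, one of -0.09 (adjusted p = 0.782). Whether family members differed in their response was not tested.

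The genes whose pattern was most like that of H19 were Hpse, Eif4enif1, Rap2a, Foxred2 and Fbln2, by the Pearson correlation of log2(FPKM + 0.5) over 24 libraries among 14451 genes. Their coefficients were 0.87, 0.831, 0.806, 0.804 and 0.797. These libraries share the co-culture contrasts, so genes that differ between co-cultured and control PSC correlate with H19 through the groups. The 5 genes with the lowest coefficients were Pawr, Trnp1, Itga8, D130020L05Rik and Wfdc1, from -0.803 to -0.785. Within the 12 libraries of the inverse model 1 of the 5 most similar genes was again among the first 5, and within those of the standard model none was.

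Among the members, Mest had the lowest coefficient with H19, -0.741. The 24 libraries include the inverse ones that led to the choice of H19. Genes lower in co-cultured than in control PSC therefore tend to have negative coefficients, also within each model. The coefficient of Mest was -0.78 within the standard and -0.721 within the inverse model. Peg3 was at -0.427, Cdkn1c at -0.389, Plagl1 at -0.359 and Meg3 at -0.28, while Igf2r was at 0.257 and Grb10 at 0.003. These coefficients describe the 24 libraries and carry no test.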

How the data were processed

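Poly-A RNA of PSC was sequenced in 24 libraries. Per the labels and the methods, the authors aligned reads with HISAT2 2.0.5 to GRCm38, counted fragments per gene with featureCounts 1.5.0-p3 at its defaults, called DEG with DESeq2 1.20.0, and deposited FPKM values of 53801 genes. The annotation release is not given in the sources used here, and counts were not used here. As FPKM divides by the library total, a change in abundant genes shifts the values of the rest. The 3 libraries of a group are biological replicates per the methods, but which isolations they came from is not stated, so p-values measure the spread between these libraries, which may be technical.

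Genes were matched to GRCm38 annotation (53706 of 53801). Between 95.02% and 96.03% of low values were whole multiples of 1 fragment, which gave the counted fragments. Values were compared with limma 3.58.1 (R 4.3.3), as a moderated two-sided test with intensity trend on log2(FPKM + 0.5), over genes that exceeded an FPKM of 1 in 3 or more libraries of the comparison, with Benjamini-Hochberg adjustment over all of them and a threshold of 0.05. Co-cultures were compared with their own controls, and differences between models over all 24 libraries. Members and lists were chosen with earlier results of these data known. Besides all members, the text names list genes called at 72 h in inverse co-culture, at most the 4 largest per list, and the 5 genes most and least like H19. Python 3.11.15, pandas 2.3.3, numpy 2.4.6 and scipy 1.17.1 were used for tables.

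Same-numbered libraries deviated together in the standard model, by correlations across genes of 0.478 to 0.823, but not in the inverse model (-0.171 to 0.148) or between models (-0.301 to 0.086). The pairing is read from the data and not from the labels. Alternatives were pseudocounts of 1 and 0.1, no filter, a mean FPKM above 5, median and quantile scaling, no trend, all 24 libraries in 1 model, the replicate block, voom on recovered fragments and each library left out.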

Additional observations from a re-analysis of the deposited data

How the results depend on the processing

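Of 8 called values of members, none changed sign in any alternative run and 2 (Peg3 in inverse co-culture at 72 h and Plagl1 in inverse controls over time) were called in all of them. Of 61 member values that missed the threshold, none passed in an alternative and 25 changed sign in at least 1. In inverse co-culture at 72 h, 1 member in place of 4 was called with no filter, and 1 to 4 with a library left out in turn. In inverse controls over time, 1 was called in place of 4 with no filter, 2 with no intensity trend and 1 in a model over all 24 libraries, and 1 to 3 with a library left out. The causes were not tested. With the replicate block, 3 members were called in inverse co-culture at 72 h and 3 in inverse controls over time, 0 in the other comparisons, and the block called 157 genes in place of 0 in standard co-culture at 24 h, 1 in place of 0 at 72 h and 16 in place of 0 for the difference between models at 72 h.

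Values near 0 that turned in sign were, in standard co-culture at 72 h, Igf2r (0.0618 with median scaling, 0.0474 with quantile normalization, and -0.0756 to 0.0285 with a library left out) and Grb10 (0.0326 with median scaling and -0.22 to 0.0471 with a library left out). With a library left out, Igf2r ran from -0.17 to 0.33 in standard co-culture at 24 h. At 24 h of the inverse model Igf2r ran from -0.16 to 0.24, Plagl1 from -0.0524 to 0.24 and Grb10 from -0.064 to 0.0797. Of the 5 genes most like H19, 0 were among the first 5 within the standard and 1 within the inverse model. Of 10 list genes called in inverse co-culture at 72 h, 3 were called in all alternatives, and of 3 at 24 h, 0 were. In inverse co-culture at 24 h the higher share of all DEG was 43.8%, and 55.8% and 50.8% with median and quantile scaling. Depth limits H19, Meg3 and Mest, which rest on few fragments, and the scale for scarce genes understates their changes. With the mean filter H19, Meg3 and Mest were not tested in any co-culture comparison. H19 at 72 h in standard co-culture was tested only with no filter or with all 24 libraries, with adjusted p = 0.889 and 0.746 in limma.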
